A study of Mus musculus with 6 samples.

Results

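Potassium channels and the related HCN channels set how readily a neuron fires. A set of 39 genes for such channels and their partner subunits was picked out by symbol from the 54232 genes of the count tables, and all 39 were found. Of these, 31 encode pore-forming subunits, 2 encode modulatory subunits that join other pores, and 6 encode auxiliary subunits. RNA was sequenced from 6 libraries of cortical neurons from CD1 mice, an outbred stock, labelled wildtype throughout. PA + PS2, PA (a peptide amphiphile, a molecule that assembles into fibres) and control held 2 libraries each, numbered repeat 1 and repeat 2. Library names carry IKVAV with PEDOT-S for PA + PS2, IKVAV for PA and PDL for the control, where IKVAV is a laminin-derived peptide sequence and PEDOT a conducting polymer. The treatment label names the peptide amphiphile for the control too, while no source used here spells out PS2 or gives culture time, age or dose. The library names also carry T1 in every repeat 1 library, but T12 in PA + PS2, T2 in PA and T3 in the control for repeat 2. Nothing in the labels ties a repeat to its own culture or animal, and p-values therefore cover only the spread among these libraries, which may be technical. The title of the study names neuronal maturation, and the comparisons ask what PA with PS2 changed, what PS2 added to PA and what PA changed.

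Open potassium channels let potassium leave the cell and hold the membrane near rest. Voltage-gated members of the Kcna, Kcnb, Kcnc and Kcnd groups repolarize the action potential or delay it, Kcnq channels carry the M current that restrains repetitive firing, and calcium-activated Kcnma1 and Kcnn channels shape the afterpotential. G protein-gated Kcnj channels answer inhibitory transmitters, and Kcnk channels carry leak current. HCN channels open on hyperpolarization, pass sodium as well as potassium, and depolarize the cell. Several of these genes are known to rise as cortical neurons mature.

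A potassium-selective pore is lined by a short stretch in which a glycine, an aromatic residue and another glycine line up carbonyl oxygens for the ion. The coding sequence of this filter is printed for 8 members among the most abundant or most displaced of the pore groups, with the 3 codons of that motif in capitals, 15 bases before them and 9 after, read from the GENCODE M21 transcripts on GRCm38. The stretches lie at chr3:107105215-107105247 (plus strand, Kcna2), chr10:112456220-112456252 (plus, Kcnc2), chr2:62777334-62777366 (minus, Kcnh7) and chr14:23528404-23528436 (minus, Kcnma1). Those of Kcnj3 and Hcn4 lie at chr2:55437618-55437650 and chr9:58855576-58855608, both on the plus strand. An intron splits the stretch of Kcnd2 (chromosome 6, plus strand) and the first stretch of Kcnk1 (chromosome 8, plus strand), and the second stretch of Kcnk1 lies at chr8:126025320-126025352.
Kcna2: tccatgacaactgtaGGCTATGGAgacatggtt
Kcnc2: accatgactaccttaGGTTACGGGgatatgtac
Kcnd2: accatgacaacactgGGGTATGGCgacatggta
Kcnh7: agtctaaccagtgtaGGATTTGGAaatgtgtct
Kcnma1: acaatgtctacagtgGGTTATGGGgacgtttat
Kcnj3: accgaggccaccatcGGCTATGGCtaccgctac
Kcnk1 (first): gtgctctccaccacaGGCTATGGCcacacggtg
Kcnk1 (second): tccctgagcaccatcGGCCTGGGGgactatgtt
Hcn4: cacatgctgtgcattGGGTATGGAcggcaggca
The middle codon reads tyrosine in most of these genes, phenylalanine in Kcnh7 and leucine in the second filter of Kcnk1. Over all members, 23 pore genes and both modulatory genes (Kcns2 and Kcnv1) held 1 filter motif with tyrosine, and 5 pore genes (Kcnh1, Kcnh3, Kcnh7, Kcnt1 and Kcnt2) held 1 with phenylalanine. Kcnk1 and Kcnk2 held 2 motifs, and the 6 auxiliary genes held 0. Channels of the Kcnk group are known to carry 2 pore domains in each chain, and leucine was allowed as the middle residue for this group alone. The second motif of Kcnk1 was found only through this wider search, so its count is not on equal terms with the other members. Hcn4 had a second match far downstream of its pore, so a match of these letters is a description and not a functional site.

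The windows around the start sites of 30 members were found in the RefSeq promoter table (build GRCm38.p6), 250 bases upstream to 50 downstream. Where a gene had several windows, letters found in any of them were counted, and its highest GC content was taken. The GC box letters GGGCGG, on either strand, stood in 21 of these 30, against 38.2% of the 27025 genes in the table. The median of this GC content was 65.2% for the members and 53.3% for all genes. The TATA box letters TATAAA stood in 2 members, Kcnab1 and Kcnj9, against 15.7% of all genes. The cAMP response element TGACGTCA and the letters TCAGCACC, part of the RE1 element bound by the neuronal silencer REST, stood in 0 of the 30, against 2.03% and 1.85% of all genes. Hcn3, Kcna1, Kcnb2, Kcnh3, Kcnn2, Kcnq3, Kcns2, Kcnt1 and Kcnv1 had no entry in the table.

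The libraries held 31591670 and 30752495 counts in PA + PS2, 30714311 and 31819918 in PA, and 33291775 and 33923681 in the control. Members took 0.164% to 0.181% of the counts, and all 39 passed the filter on low counts. Levels are given in CPM, counts per 1000000 scaled by TMM, with repeat 1 before repeat 2. The 5 neuronal markers summed to 5408 and 4966 CPM in PA + PS2, 5193 and 5304 CPM in PA, and 5128 and 5478 CPM in the control, and each of the 5 reached 1 CPM. All 5 glutamatergic markers and 5 of 6 GABA markers reached 1 CPM, and Pvalb stayed under 0.1 CPM. Microglial markers summed to at most 4.48 CPM in any library.

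Summed over the 39 genes, channel RNA stood at 1735 and 1636 CPM in PA + PS2, 1727 and 1814 CPM in PA, and 1753 and 1763 CPM in the control. Per kilobase of exon, which allows genes to be compared, the A-type channel gene Kcnd2 was highest with a mean of 26.3 CPM per kb over the 6 libraries. Kcnj3 followed at 19.2, Hcn2 at 18.6, Kcnq5 at 17.8, Hcn3 at 16.8, Hcn4 at 13.7 and Kcnma1 at 11.7 CPM per kb. Hcn2 and Hcn3 were among the 5 highest members by this length. At the lower end were Kcnn3 at 0.999, the auxiliary gene Kcnab1 at 0.737 and Kcna5 at 0.421 CPM per kb, the last with only 22 to 61 counts per library. The median member stood at 4.003 CPM per kb, against 3.40 for the genes tested, and 24 members lay above the median of the genes tested. Ranges over the libraries overlapped for 37 of 38 neighbours in this order, the exception being Hcn4 and Kcnma1, so the order of close neighbours is not resolved. With the length of the longest transcript in place of all exons the same 10 genes were highest, in another order, with Hcn4 at rank 8 in place of 6.

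**Figure D1:**
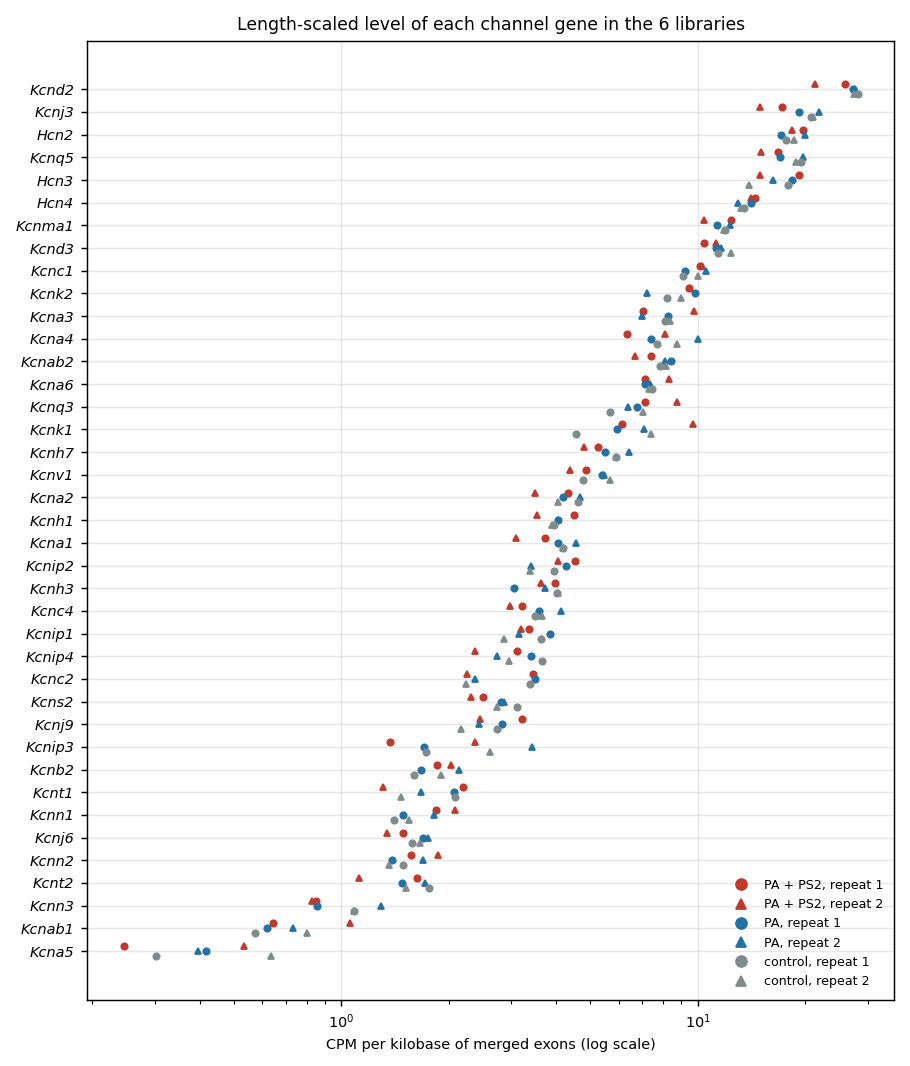
CPM per kilobase of merged exons on a log axis for each of the 39 channel genes, ordered by the mean over libraries; colours mark PA + PS2, PA and control, circles repeat 1 and triangles repeat 2. Values run from Kcna5 (mean 0.421) to Kcnd2 (mean 26.3), and within most genes the 3 groups lie on top of each other.

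In PA + PS2 against the control, 0 of 39 channel genes passed edgeR's quasi-likelihood test after adjustment over the 17299 genes tested, where 0% of all genes passed. At an unadjusted p under 0.05 there were 5 members, against 6.82% of all genes, and DESeq2 (0.723% of all genes) and limma-voom also called 0 members. The genes nearest the threshold were the G protein-gated Kcnj3, the M-current gene Kcnq5, the A-type gene Kcnd2 and the ether-à-go-go related Kcnh7, all lower, and Kcnq3, which was higher. The median log2 fold change was -0.06 over the members and 0.01 over all genes, with 18 of 39 members above 0 and 51.9% of all genes. The 95% interval of the fold change lay within 1.5-fold of no change for 21 members and within 2-fold for 36, so differences beyond 2-fold were outside the interval for all but Kcna5, Kcnip3 and Kcnk1. In bulk RNA, fewer cells of a type and less RNA per cell cannot be told apart.

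The repeat numbers carried shared differences, and with the repeat number as a block in edgeR 0 members passed, against 0.676% of all genes. At an unadjusted p under 0.05 that fit had 8 members, against 11.9% of all genes. The block in DESeq2 called 1 member, Kcnj3 (adjusted p = 0.0417, lower), where 1.59% of all genes passed. A further fit, with the block and only the libraries of PA + PS2 and control, called 4 members, Kcnj3, Kcnq5 and Kcnd2 lower and Kcnq3 higher, where 5.07% of all genes passed.

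Kcnj3 encodes the subunit that most neuronal G protein-gated inward rectifiers share, and lies at chr2:55435970-55598145 on the plus strand. It stood at 89.7 and 78.2 CPM in PA + PS2, 100.4 and 114 CPM in PA and 108 and 110.01 CPM in the control. Both PA + PS2 libraries were below the other 4. Its log2 fold change was -0.38 against the control (SE 0.10, adjusted p = 0.54 in edgeR) and -0.36 against PA (SE 0.10, adjusted p = 0.468). With the block the adjusted p was 0.0934 against the control and 0.0884 against PA. In that blocked fit it passed against the control once PA + PS2 repeat 1 (adjusted p = 0.0205), PA repeat 1 (0.0114) or PA repeat 2 (0.0071) was left out, where 2.84%, 2.72% and 3.07% of all genes passed. In the first of these fits PA + PS2 was a single library, assumed to vary like the other groups. Within repeats the log2 ratio of PA + PS2 to control was -0.27 in repeat 1 and -0.49 in repeat 2. The lincRNA gene Gm26794 runs opposite to 31.1% of the exon length of Kcnj3, and no source used here gives the strand that was counted. That gene stood at 5.001 and 3.54 CPM in PA + PS2, 4.13 and 2.397 CPM in PA and 4.85 and 2.89 CPM in the control, so its groups overlapped.

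Its partner genes lay nearer the control. Kcnj6, a further subunit of these channels, had 11.4 and 10.3 CPM in PA + PS2, 12.9 and 13.4 CPM in PA and 12.03 and 12.7 CPM in the control. Kcnj9, also of this group, stood at 13.8 and 10.5 CPM in PA + PS2, 12.1 and 10.4 CPM in PA and 11.7 and 9.32 CPM in the control. Kcnj6 had both PA + PS2 libraries below the rest, whereas those of Kcnj9 overlapped with the others. The 3 genes summed to 0.810 times the control level in PA + PS2, the lowest ratio of the 15 channel groups, with 0.870 in repeat 1 and 0.750 in repeat 2. Kcnj3 made up most of this sum, so the ratio mainly restates that gene. The log2 fold change against the control was -0.19 for Kcnj6 and 0.21 for Kcnj9.

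**Figure D2:**
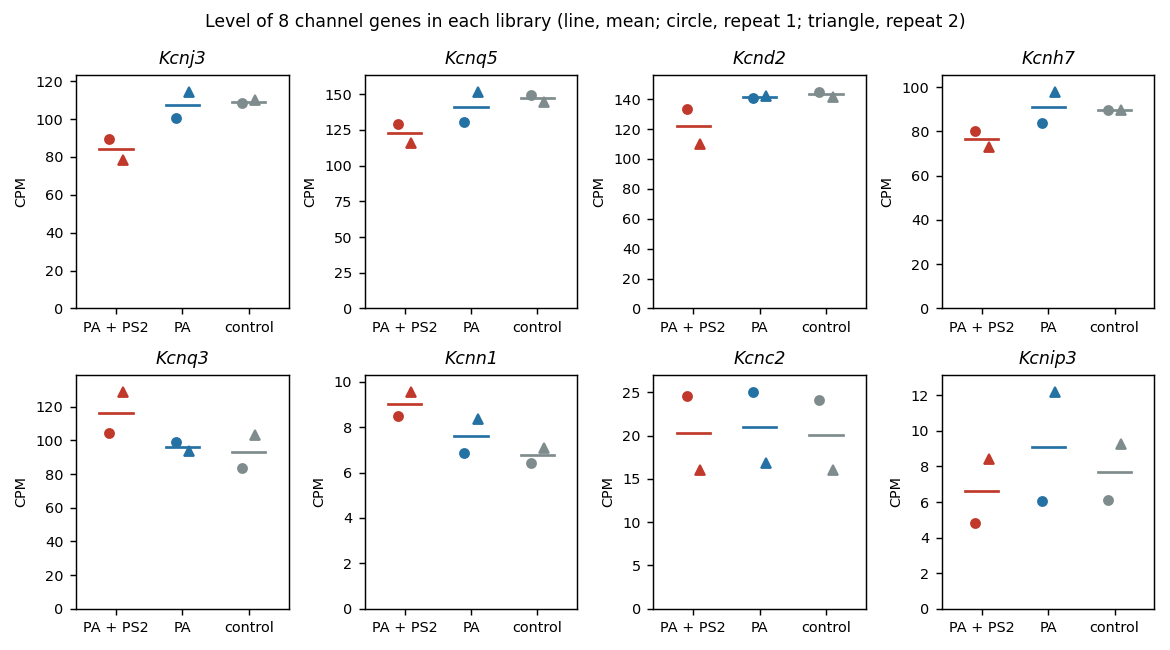
Level in CPM of 8 channel genes in PA + PS2, PA and control, with a line at the mean of 2 libraries, circles for repeat 1 and triangles for repeat 2; all vertical axes start at 0. Kcnj3, Kcnq5, Kcnd2 and Kcnh7 have both PA + PS2 libraries below the other 4, Kcnq3 and Kcnn1 have them above, and Kcnc2 and Kcnip3 separate by repeat in all groups.

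Kcnd2 and Kcnd3 carry the subthreshold A-type current of dendrites. Kcnd2 measured 134 and 109.9 CPM in PA + PS2, 141 and 142 CPM in PA and 145 and 141 CPM in the control, with a log2 fold change of -0.23 against the control (SE 0.10, unadjusted p = 0.0451, adjusted p = 0.726 in edgeR). Kcnd3 had 100.05 and 108 CPM in PA + PS2, 108 and 111 CPM in PA and 109.6 and 119 CPM in the control. In both genes the PA + PS2 libraries lay below the other 4, and their sum was 0.877 times the control level, at 0.918 in repeat 1 and 0.836 in repeat 2. Their calcium-binding auxiliary subunits are the Kcnip genes. The most abundant of them, Kcnip1, stood at 20.9 and 19.7 CPM in PA + PS2, 23.8 and 19.6 CPM in PA and 22.5 and 17.7 CPM in the control, and the groups overlapped. Kcnip2 had log2 fold changes of 0.23 against the control and 0.16 against PA, and the summed Kcnip level was 0.986 times that of the control. Kcnip4 measured 11.3 and 8.602 CPM in PA + PS2, 12.3 and 9.94 CPM in PA and 13.2 and 10.7 CPM in the control, where the groups again overlapped. These 2 pore genes did not pass the test, apart from Kcnd2 in the blocked fit of PA + PS2 and control alone, and the auxiliary genes showed no common direction. Kcnd1, the other gene of the group and not a member, had a log2 fold change of 0.24 against the control.

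The 2 M-channel genes lay on opposite sides of 0. Kcnq5 (chr1:21398403-21961942, minus strand) had 129 and 116 CPM in PA + PS2, 131 and 152 CPM in PA and 149.8 and 145 CPM in the control. Kcnq3 (chr15:65986387-66286642, minus strand) stood at 104 and 129 CPM in PA + PS2, 99.1 and 93.6 CPM in PA and 83.4 and 103 CPM in the control. Both PA + PS2 libraries were below the other 4 for Kcnq5 and above them for Kcnq3. The log2 fold change against the control was -0.26 for Kcnq5 (SE 0.10, adjusted p = 0.688 in edgeR) and 0.32 for Kcnq3 (SE 0.13, adjusted p = 0.715). With the block the adjusted p was 0.229 for Kcnq5 and 0.175 for Kcnq3, and with the block and PA repeat 2 left out it was 0.0465 for Kcnq5 and 0.0195 for Kcnq3. Kcnq3 also passed with PA repeat 1 left out (adjusted p = 0.0236). Their sum hardly differed, at 0.994 times the control level.

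Among the ether-à-go-go genes, Kcnh7 measured 79.9 and 73.04 CPM in PA + PS2, 83.9 and 97.8 CPM in PA and 89.8 and 89.6 CPM in the control (log2 fold change -0.23 against the control, SE 0.10, adjusted p = 0.726 in edgeR). Its PA + PS2 libraries lay below the other 4. Kcnh1 overlapped, at 33.1 and 25.9 CPM in PA + PS2, 29.8 and 29.8 CPM in PA and 29.1 and 28.6 CPM in the control. Kcnh3 was lowest in PA repeat 1, at 22.8 and 20.9 CPM in PA + PS2, 17.6 and 21.5 CPM in PA and 23.1 and 23.3 CPM in the control.

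The Kcna genes encode channels of the axon and its initial segment. Kcna2, the most abundant in CPM, had 51.3 and 41.6 CPM in PA + PS2, 49.99 and 55.7 CPM in PA and 54.8 and 48.2 CPM in the control. Kcna1 stood at 17.8 and 14.7 CPM in PA + PS2, 19.4 and 21.8 CPM in PA and 20.004 and 20.001 CPM in the control. Only Kcna1 of these 2 had its PA + PS2 libraries below all others, with log2 fold changes of -0.30 against the control (SE 0.14) and -0.34 against PA (SE 0.14). Kcna3, Kcna4, Kcna5 and Kcna6 had log2 fold changes against the control of 0.03, -0.19, -0.27 and 0.06, and their library values overlapped. Kcna3 measured 13.4 and 18.6 CPM in PA + PS2, 15.7 and 13.3 CPM in PA and 15.4 and 15.9 CPM in the control. Kcna5, the sparsest member, had 0.701 and 1.53 CPM in PA + PS2, 1.19 and 1.136 CPM in PA and 0.863 and 1.82 CPM in the control. An antisense gene covers 39.6% of the exon length of Kcna6, but had 7 counts over all libraries. Kcnab2, the main auxiliary subunit here, stood at 41.2 and 37.2 CPM in PA + PS2, 46.95 and 45.2 CPM in PA and 43.6 and 45.4 CPM in the control, lower in both PA + PS2 libraries. Kcnab1 went the other way in its fitted value, at 5.54 and 9.09 CPM in PA + PS2, 5.32 and 6.28 CPM in PA and 4.91 and 6.88 CPM in the control (log2 fold change 0.31, SE 0.28). Without the block, leaving out PA + PS2 repeat 2 gave a log2 fold change of -0.09 against the control and -0.07 against PA. That fit set repeat 1 of PA + PS2 against both repeats of the other groups, and Kcnab1 was higher in repeat 2 in every group. With the block and 1 library left out, the log2 fold change ran from 0.11 to 0.45 against the control and from 0.13 to 0.49 against PA.

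Genes of the Kcnb and Kcnc groups had no common direction. Kcnb2 measured 28.2 and 30.8 CPM in PA + PS2, 25.3 and 32.5 CPM in PA and 24.3 and 28.9 CPM in the control. Kcnc1, a gene of fast-spiking cells, had 96.2 and 97.5 CPM in PA + PS2, 87.3 and 99.6 CPM in PA and 85.8 and 95.01 CPM in the control. Kcnc4 stood at 11.8 and 10.9 CPM in PA + PS2, 13.2 and 15.1 CPM in PA and 12.8 and 13.4 CPM in the control. Kcnc4 was lower in both PA + PS2 libraries than in any other, and Kcnc1 was higher there than in the control but overlapped with PA. The modulatory subunits Kcns2 and Kcnv1 do not form channels alone. Kcns2 measured 13.98 and 12.9 CPM in PA + PS2, 15.7 and 15.9 CPM in PA and 17.4 and 15.3 CPM in the control. Kcnv1 had 22.4 and 20.1 CPM in PA + PS2, 24.7 and 25.02 CPM in PA and 21.8 and 26.1 CPM in the control. Kcns2 lay below all other libraries in PA + PS2, whereas Kcnv1 lay below PA and overlapped with the control. Together the modulatory genes summed to 0.861 times the control level, at 0.928 in repeat 1 and 0.799 in repeat 2.

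The calcium-activated channels split. Kcnma1, the large-conductance channel and the member with the most counts, stood at 211 and 177 CPM in PA + PS2, 192 and 209 CPM in PA and 203 and 202 CPM in the control, with PA + PS2 the highest library in repeat 1 and the lowest in repeat 2. Kcnn1, a small-conductance channel gene, measured 8.47 and 9.54 CPM in PA + PS2, 6.84 and 8.36 CPM in PA and 6.43 and 7.08 CPM in the control, with both PA + PS2 libraries above the other 4 and the highest log2 fold change of any member against the control (0.41, SE 0.19, adjusted p = 0.754 in edgeR). Kcnn3 had its PA + PS2 libraries below the other 4, at 8.89 and 8.63 CPM in PA + PS2, 8.94 and 13.5 CPM in PA and 11.3 and 11.3 CPM in the control, the highest of them just under PA repeat 1. Kcnn2 had 11.7 and 13.9 CPM in PA + PS2, 10.4 and 12.7 CPM in PA and 11.1 and 10.1 CPM in the control. The sodium-activated Kcnt1 stood at 20.8 and 12.5 CPM in PA + PS2, 19.7 and 15.9 CPM in PA and 19.8 and 13.96 CPM in the control. Kcnt2 measured 11.2 and 7.73 CPM in PA + PS2, 10.2 and 11.9 CPM in PA and 12.1 and 10.5 CPM in the control. Values overlapped between groups in both sodium-activated genes.

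Leak and HCN channel genes had fitted values above the control, of which none passed the test. Kcnk1 had 13.7 and 21.7 CPM in PA + PS2, 13.2 and 15.8 CPM in PA and 10.2 and 16.5 CPM in the control (log2 fold change 0.41, SE 0.29). With 1 library left out and no block, the log2 fold change of Kcnk1 ran from 0.03 without PA + PS2 repeat 2 to 0.79 without control repeat 2. With the block this range was 0.30 to 0.53. The blocked fit of all libraries gave 0.41 (SE 0.14, adjusted p = 0.256 in edgeR). Kcnk2, which opens on membrane stretch, stood at 46.7 and 47.04 CPM in PA + PS2, 48.7 and 35.5 CPM in PA and 40.5 and 44.4 CPM in the control. PA repeat 2 was the lowest library for Kcnk2, and control repeat 1 for Kcnk1, and their sum was 1.16 times the control level in PA + PS2. Hcn2 measured 63.3 and 58.8 CPM in PA + PS2, 54.9 and 63.8 CPM in PA and 56.6 and 59.6 CPM in the control. Hcn3 had 79.7 and 62.2 CPM in PA + PS2, 76.2 and 67.5 CPM in PA and 74.7 and 57.9 CPM in the control. Hcn4, the slowest-opening HCN channel, stood at 88.7 and 86.2 CPM in PA + PS2, 86.5 and 79.6 CPM in PA and 82.7 and 80.7 CPM in the control. Both PA + PS2 libraries lay above the control for Hcn4, whereas Hcn2 and Hcn3 overlapped with it. The 95% interval of the log2 fold change against the control was -0.16 to 0.31 for Hcn2, -0.27 to 0.47 for Hcn3 and -0.09 to 0.29 for Hcn4, all within 1.5-fold. Pklr runs opposite to 17.1% of the exon length of Hcn3 and had 58 counts over all libraries.

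**Figure D3:**
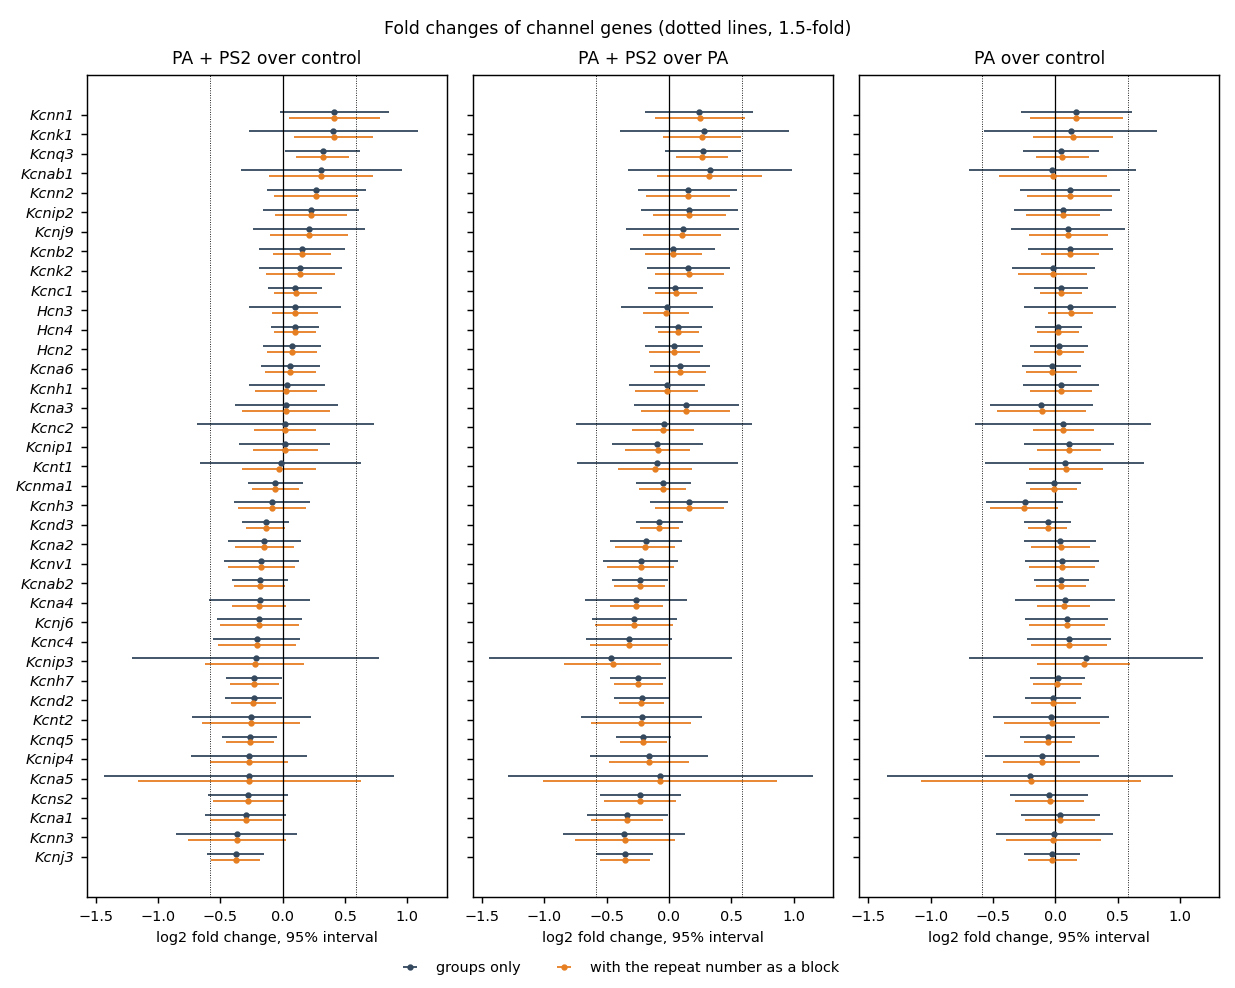
Log2 fold change with its 95% interval for each of the 39 channel genes, in panels for PA + PS2 over control, PA + PS2 over PA and PA over control; dark points are from the fit on groups alone, orange points from the fit with the repeat number as a block, and dotted lines mark 1.5-fold. Kcnn1 stands at the top (0.41 over control) and Kcnj3 at the bottom (-0.38), and in the panel of PA over control the points lie close to 0.

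Against PA, PA + PS2 gave 0 of 39 members past the threshold in edgeR, against 0% of all genes. At an unadjusted p under 0.05 there were 4 members, Kcnj3, Kcnh7, Kcna1 and Kcnab2, all lower, against 7.6% of all genes. DESeq2 (1.06% of all genes) and limma-voom called 0 members. With the block 0 members passed, against 1.62% of all genes, and 10 were under an unadjusted p of 0.05, against 12.2%. Without PA repeat 1 the blocked fit called 4 members, Kcnj3, Kcnq5 and Kcnh7 lower and Kcnq3 higher, where 3.39% of all genes passed. Without PA + PS2 repeat 1 it called Kcnj3, where 3.31% of all genes passed, and the single PA + PS2 library was then assumed to vary like the other groups. The median log2 fold change was -0.07 over the members and 0.00 over all genes. The lowest log2 fold changes against PA were those of Kcnip3 (-0.47, SE 0.41), Kcnn3 (-0.36, SE 0.21), Kcnj3 (-0.36) and Kcna1 (-0.34), and the highest were those of Kcnab1 (0.33, SE 0.29), Kcnk1 (0.28, SE 0.29), Kcnq3 (0.27) and Kcnn1 (0.24). In the fit without the block, the sign of Kcnip3 turned without PA repeat 2, and those of Kcnab1 and Kcnk1 turned without PA + PS2 repeat 2. With the block none of these signs turned with a library left out. The 95% interval lay within 1.5-fold for 25 members and within 2-fold for 37, the exceptions being Kcna5 and Kcnip3.

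Both PA + PS2 libraries lay outside the range of the other 4 for 13 members. Of these, 11 were lower (Kcna1, Kcnab2, Kcnc4, Kcnd2, Kcnd3, Kcnq5, Kcnh7, Kcns2, Kcnn3, Kcnj3 and Kcnj6), against 11.2% of all genes, and 2 were higher (Kcnq3 and Kcnn1), against 9.42%. Against the control alone, 12 members were lower without overlap and 7 higher, against 17.1% and 16.6% of all genes. Within repeats, 18 members were lower than the control in both repeats, 13 were higher in both and 8 changed sign. The same sign in both repeats was found for 79.5% of the members and 57.7% of all genes tested. Against PA, 8 members were higher in both repeats and 16 lower in both, and the same sign was found for 61.5% of the members and 54.5% of all genes, a description on which no test was run.

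Markers of other cells also differed in level between the groups. The 6 progenitor and cycling-cell markers summed to 68.0 and 86.2 CPM in PA + PS2, 127 and 257 CPM in PA, and 110.0 and 208 CPM in the control. Astrocyte markers, of which 5 of 6 reached 1 CPM, summed to 28.2 and 37.6 CPM in PA + PS2, 52.2 and 167 CPM in PA, and 41.4 and 91.4 CPM in the control. For both lists PA + PS2 was the lowest group. Oligodendrocyte-lineage markers (8 of 8) summed to 45.4 and 69.2 CPM in PA + PS2, 51.0 and 147 CPM in PA, and 54.7 and 103 CPM in the control. Endothelial and mural markers (5 of 6) summed to 42.2 and 29.4 CPM in PA + PS2, 102 and 63.6 CPM in PA, and 71.1 and 107 CPM in the control. Meningeal markers (3 of 4) summed to 49.1 and 11.2 CPM in PA + PS2, 62.8 and 34 CPM in PA, and 59.0 and 45.0 CPM in the control. Endothelial and mural markers were lowest in PA + PS2, and the sums of the other 2 lists overlapped between groups. Within the oligodendrocyte lineage the markers went opposite ways, with Olig1, of precursors, at 2.45 and 2.37 CPM in PA + PS2, 9.75 and 59.6 CPM in PA and 12.5 and 37.9 CPM in the control. Mbp, of myelin, measured 32.3 and 53.6 CPM in PA + PS2, 26.1 and 24.5 CPM in PA and 21.3 and 21.9 CPM in the control. Olig2, Pdgfra, Sox10 and Cspg4 had lower means in PA + PS2 than in either other group, and Mag and Mobp had higher ones. The astrocyte sum was mostly Slc1a3, and S100b was under 1 CPM in every library and highest in PA + PS2. Among neurons, GABA markers summed to 770.3 and 719.7 CPM in PA + PS2, 975 and 756 CPM in PA, and 877 and 795 CPM in the control, and glutamatergic markers to 992 and 971 CPM in PA + PS2, 941 and 916 CPM in PA, and 873 and 929 CPM in the control. Glutamatergic markers were highest in PA + PS2 and GABA markers overlapped with PA repeat 2, and the part of these lists in the channel values was not tested.

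Between PA and the control, channel genes lay close together. In edgeR 0 of 39 members passed, against 0% of all genes, and at an unadjusted p under 0.05 there were 0 members, against 0.798% of all genes. DESeq2, limma-voom and the fit with the block also called 0 members (0% of all genes in each), and the blocked fit had 0 members at an unadjusted p under 0.05, against 1.87% of all genes. The median log2 fold change was 0.04 over the members and 0.01 over all genes, and 24 of 39 members were above 0, against 52.4% of all genes. The median of the members was -0.04 without PA repeat 2 and just below 0 without control repeat 2. The extremes were Kcnip3 (0.25, SE 0.40), Kcnn1 (0.17), Kcnk1 (0.12) and Kcnb2 (0.12) on the higher side, and Kcnh3 (-0.25, SE 0.13), Kcna3 (-0.11), Kcnip4 (-0.11) and Kcnd3 (-0.06) on the lower side, all as log2 fold changes. In the fit without the block, the signs of Kcnip3, Kcnk1, Kcnb2 and Kcnip4 turned without PA repeat 2, and those of Kcnip3, Kcnk1 and Kcnip4 also without control repeat 1. With the block and a library left out, those of Kcnk1 and Kcna3 turned, and those of Kcnip3, Kcnb2 and Kcnip4 did not. PA and control libraries did not overlap for Kcnh1 and Kcnj6, higher in PA, and Kcnh3, lower in PA, 7.69% of the members against 21.8% of all genes. The 95% interval lay within 1.5-fold for 32 members and within 2-fold for 37, the exceptions being Kcna5 and Kcnip3. Within repeats, 11 members were higher in PA in both, 3 lower in both, and 25 changed sign. The same sign in both repeats was found for 35.9% of the members and 44.9% of all genes tested.

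More channel genes passed between the repeats than between the treatments, but these counts are not on equal terms. Each repeat held 3 libraries and each treatment group held 2, and the members' median standard error in edgeR was smaller for the repeat difference. The counts therefore do not show that repeat differences were larger than treatment differences. In the model with group and repeat, 6 of 39 members passed edgeR's test between repeat 2 and repeat 1, where 5.21% of all genes passed. Kcnip3, Kcnk1 and Kcna4 were higher in repeat 2, against 2.16% of all genes, and Kcnc2, Kcnt1 and Hcn3 were lower, against 3.05%. At an unadjusted p under 0.05 there were 13 members, against 19.2% of all genes. DESeq2 and limma-voom called the same 6 members, and the share of all genes in those fits is not given here.

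Kcnc2, a fast delayed rectifier, was at 16.1, 16.9 and 16.01 CPM in repeat 2 of PA + PS2, PA and control, against 24.6, 25.01 and 24.1 CPM in repeat 1. Its log2 fold change was -0.59 (SE 0.09, adjusted p = 0.00434 in edgeR), nearly alike in the 3 groups. Kcnip3, an auxiliary subunit also known as a calcium-sensitive transcriptional repressor, was at 8.41, 12.2 and 9.26 CPM in repeat 2 of PA + PS2, PA and control, against 4.84, 6.07 and 6.13 CPM in repeat 1 (log2 fold change 0.80, SE 0.15, adjusted p = 0.0093). Kcnk1 was at 21.7, 15.8 and 16.5 CPM in repeat 2, against 13.7, 13.2 and 10.2 CPM in repeat 1 of the same groups (log2 fold change 0.54, adjusted p = 0.022). Every group moved the same way in these 3 genes. Kcnt1 was at 12.5, 15.9 and 13.96 CPM in repeat 2, against 20.8, 19.7 and 19.8 CPM in repeat 1 (log2 fold change -0.51, adjusted p = 0.0209). Hcn3 was at 62.2, 67.5 and 57.9 CPM in repeat 2, against 79.7, 76.2 and 74.7 CPM in repeat 1 (log2 fold change -0.30, adjusted p = 0.0264). Kcna4, an A-type channel of axons, was at 39.2, 48.4 and 42.3 CPM in repeat 2, against 30.7, 35.7 and 37.2 CPM in repeat 1 (log2 fold change 0.33, adjusted p = 0.0378). In all 6 genes the direction was the same in PA + PS2, PA and control. Over all members, 8 were higher in repeat 2 in all 3 groups, 8 were lower in all 3 and 23 were mixed. The count of members past the threshold depended on single libraries: it was 2 without PA + PS2 repeat 1 (2.88% of all genes), 1 without PA + PS2 repeat 2 (2.01%) and 0 without control repeat 1 (0.63%) or control repeat 2 (0.531%). It was 6 without PA repeat 1 (5.89% of all genes) or PA repeat 2 (6.38%), where Kcnq3 took the place of Kcna4. The summed progenitor, astrocyte and oligodendrocyte-lineage markers were also higher in repeat 2 in each group, although single oligodendrocyte-lineage genes differed, as Pdgfra was lower in repeat 2 of PA + PS2 and Mbp in repeat 2 of PA. Their part in these repeat differences was not tested.

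**Figure D4:**
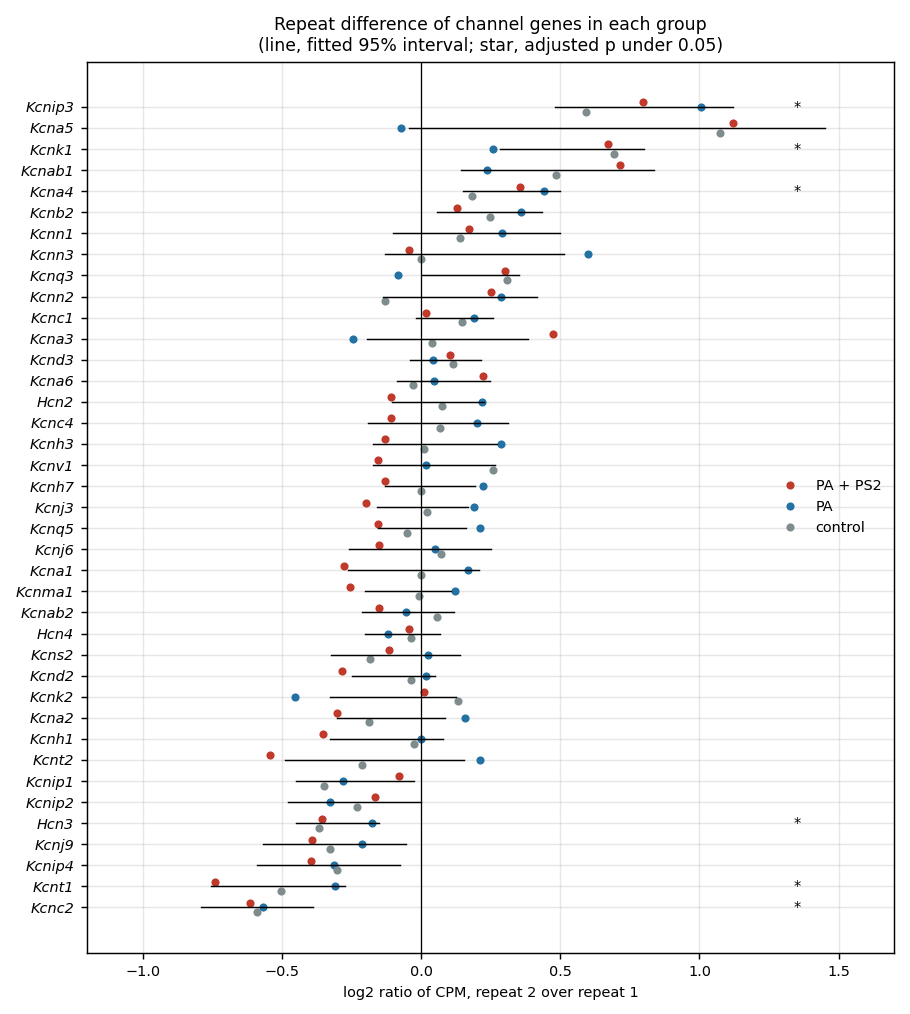
Log2 ratio of CPM in repeat 2 over repeat 1 for each of the 39 channel genes, with a point for each of PA + PS2, PA and control, a line for the fitted 95% interval and a star where the adjusted p is under 0.05. The 6 starred genes run from Kcnip3 (0.80) to Kcnc2 (-0.59), and their 3 points lie on the same side of 0.

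The other 64 genes whose symbols start with Kcn or Hcn gave a wider view, and 42 of them passed the filter. In edgeR 0 of these 42 passed in any of the 3 comparisons, and with the block 0 passed against the control (0.676% of all genes) and 2 passed against PA (1.62% of all genes), both lower in PA + PS2. They were Kcnj10, the inward rectifier best known from astrocytes, and Kcne1l, named for its likeness to an auxiliary subunit. Kcnj10 had 3.44 and 2.73 CPM in PA + PS2, 8.68 and 25.6 CPM in PA and 7.12 and 15.6 CPM in the control (log2 fold change against PA with the block -2.39, adjusted p = 0.0336). Kcne1l stood at 0.446 and 0.844 CPM in PA + PS2, 2.94 and 3.19 CPM in PA and 1.16 and 2.86 CPM in the control (log2 fold change -2.25, adjusted p = 0.0209). The call of Kcnj10 was lost without PA repeat 2, PA + PS2 repeat 2 or either control library, and that of Kcne1l without either PA + PS2 library. Both genes were lowest in PA + PS2, as was the summed level of the astrocyte markers, whose part was not tested. Kcnk9, a leak channel gene singled out after its values were seen, was called lower against the control by the block in DESeq2 (1.59% of all genes). It stood at 168 and 155 CPM in PA + PS2, 189 and 237 CPM in PA and 223 and 217 CPM in the control.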

How the data were processed

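RNA from 6 libraries was harvested with an RNeasy micro kit and turned into libraries with TruSeq Total RNA reagents (per the labels' protocols), although another label reads polyA RNA. The deposited files hold whole-number raw counts for each Ensembl gene, per the file headers. The tools cutadapt 4.2, STAR 2.7.5, HTSeq 2.0.2 and DESeq2 1.14.1 and the build mm10 are named without roles, per the submitters' processing notes. The annotation release, counting settings and strandedness are in none of the sources used here, and the 17 members that share exon bases with an opposite-strand gene are uncertain to that extent, and 4 of them share at least 10% of their exon length. Totals ran from 30714311 to 33923681 counts.

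For the 17299 genes that passed filterByExpr, edgeR 4.0.16 was run under R 4.3.3 (TMM, robust quasi-likelihood F test, 1 model of 3 groups, 3 residual degrees of freedom), with Benjamini-Hochberg adjustment over all of them and a threshold of 0.05. Standard errors and 95% intervals were derived from the F statistic. Biological variation was 16.7%, and 9.57% with the repeat number as a block (2 residual degrees of freedom). Alternatives were RLE size factors, library totals, other filters, DESeq2 1.42.0, limma-voom (limma 3.58.1), the legacy test, only the groups compared, the block, and leaving out each library. The fits were also run on simulated data with planted changes larger than any fitted for the members. That run therefore does not bear on whether differences as small as those of the members can be found. Exon lengths and positions come from GENCODE M21 (GRCm38, also called mm10).

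Pairing by repeat number was judged from the data, since no label names a litter, batch or day and the codes in the library names are shared over repeat 1 alone. Repeat differences correlated over all genes at 0.286 between PA + PS2 and PA, 0.468 between PA + PS2 and control and 0.479 between PA and control, all above 0.1, so blocked values are given where they change a count of calls. The comparisons of PA + PS2 with control and with PA share libraries, as do those with control.

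The members, gene lists and markers were chosen with earlier results of these data known. All members are accounted for; values in every library are given for the highest member of each channel group, members called by any of 3 fits, and the 4 highest and 4 lowest per comparison at a mean of at least 5 CPM, and further members were added after their values were seen. The filter sequences of 2 further members are not reported here.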

Additional observations from a re-analysis of the deposited data

How the results depend on the processing

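Without the replicate block, the count of members past the threshold stayed at 0 in each of the 3 treatment comparisons under RLE size factors, library totals, both other filters, DESeq2, limma-voom, the legacy test, only the groups compared, and each library left out. With the replicate block it was 0 in each in edgeR, against 117 of all genes for PA + PS2 over control, 280 for PA + PS2 over PA and 0 for PA over control, and 0 for limma-voom, RLE and the stricter filter. For PA + PS2 over control the block in DESeq2 called 1 member (Kcnj3) and the block with only the groups compared called 4 (Kcnd2, Kcnj3 and Kcnq5 lower, Kcnq3 higher). With the block and each library left out, the count ran from 0 to 3 for PA + PS2 over control and from 0 to 4 for PA + PS2 over PA, and for the repeat difference it ran from 0 to 6. With each library left out, the median log2 fold change of the members ran from -0.095 to -0.024 without the block and from -0.16 to -0.013 with it for PA + PS2 over control. For PA over control it ran from -0.044 to 0.045 without and from -0.010 to 0.097 with the block.

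Other channel genes called numbered 1 in DESeq2 for PA + PS2 over PA, where 1.06% of all genes passed. With the block that count was 2 in edgeR (1.62% of all genes), and also 2 in limma-voom, RLE and the stricter filter. It was 3 with the block in DESeq2, where 57 of all genes passed as higher and 308 as lower. When just PA + PS2 and PA were fitted with the block it was 1. The share of all genes is not given here for that fit or for the blocked limma-voom, RLE and stricter-filter fits, so their counts have no background to be read against. For PA + PS2 over control the count of other channel genes was 1 with the block in DESeq2 (1.59% of all genes). With the block and only the groups compared it was 5 (5.07% of all genes). These blocked counts also changed with the library left out. Log2 ratios of subfamily sums shifted slightly with the scaling. Kcnab in PA + PS2 over PA was -0.17 under library totals and -0.15 under RLE, Kcnd in PA over control -0.032 and -0.043, and Kcnq in PA over control -0.014 and -0.025. Without the block, but not with it, signs turned with a library left out for Kcnab1 in PA + PS2 over control (-0.090 to 0.62) and over PA (-0.067 to 0.65). The same held in PA + PS2 over PA for Kcnk1 (-0.090 to 0.59) and Kcnip3 (-0.92 to 0.13). In PA over control signs turned without the block for Kcnb2 (-0.081 to 0.29), Kcnip3 (-0.35 to 0.66), Kcnip4 (-0.27 to 0.050) and Kcnk1 (-0.18 to 0.50). With the block they turned there for Kcnk1 (-0.057 to 0.36) and Kcna3 (-0.36 to 0.12). The causes were not tested. With 2 libraries a group, Kcna5 could not be limited to within 2-fold in any comparison.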
